A study of Mus musculus with 12 samples.

Results

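A set of 10 genes that mark podocytes or build their slit diaphragm was followed (Nphs1, Wt1, Podxl, Cd2ap, Actn4, Ptpro, Tcf21, Tjp1, Fat1 and Myo1e). A gene was taken where a row of the deposited array table names it as its only symbol, and the brightest row would have been taken where a gene had several. This gave 1 row for each of 9 of the 10 listed genes, out of 23332 rows, of which 14996 have 1 symbol. Fat1, which encodes a large protocadherin, has no such row and was not analysed here.

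Podocytes are the epithelial cells that wrap the capillaries of the kidney filter. Their interlocking foot processes are joined by the slit diaphragm, a specialised junction whose backbone is the adhesion protein nephrin. Inside the cell, adaptor and scaffold proteins tie this junction to a dense actin network, and a small set of transcription factors maintains the cell type. Flow of filtrate past podocytes exerts shear stress on them, and loss of nephrin, podocalyxin and other products of this gene group accompanies podocyte injury.

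The cells were a conditionally immortalized mouse podocyte line that carries the thermosensitive tsA58 T antigen and came from an Immortomouse. They were grown at 33 °C with γ-interferon, differentiated at 37 °C without it and used on day 14. The labels describe Control in a pair of ways, as cells harvested before shear and as unsheared cells kept in the same hood and incubator. When Control was harvested is therefore not clear, and shear and harvest time cannot be told apart in a difference from Control. The other cells received 2 dynes per square centimetre (75 ml per minute) for 2 h and were harvested at its end (End), or after 2 h (Post-2hr) or 24 h (Post-24hr) back in their original medium. All 4 groups hold 3 arrays each, numbered 1 to 3, of 1 cell line in culture on glass. A single line without filtrate, basement membrane or neighbouring cell types limits what these groups model. The labels do not say whether the 3 samples of a group were separate cultures, so a p-value here reflects only how far these arrays vary, and that variation may be technical.

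Values are gene-level log2 expression from Affymetrix Mouse Exon 1.0 ST arrays, normalized by the submitters. Array medians ran from 6.93 to 7.11, lower quartiles from 5.22 to 5.31 and upper quartiles from 9.01 to 9.25. The replicate 1 array of every group lay apart from replicates 2 and 3 on the first principal component (42.4% of the variance). The levels of each measured gene of the list are therefore also given by replicate number. In bulk RNA, fewer expressing cells and less RNA per cell cannot be told apart.

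Nphs1, Wt1, Tcf21 and Ptpro were mid-range or dim on these arrays, whereas the adaptor and cytoskeletal genes were bright. Nphs1 (nephrin) averaged 6.64 over the 12 arrays, at the 45.2 percentile of all rows and below the array median on every array. Wt1, a transcription factor needed for kidney development, averaged 7.35, at the 53.9 percentile and just above the median on 12 of 12 arrays. Tcf21, a basic helix-loop-helix factor of developing podocytes, averaged 5.98 (35.4 percentile). Ptpro, the receptor tyrosine phosphatase also called GLEPP1, averaged 4.68 (18.2 percentile) and lay below the lower quartile on 12 of 12 arrays. The table carries no detection calls, so Ptpro and Tcf21 may or may not be above background, and a row's brightness also depends on its probes.

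The other 5 genes are expressed in many other cell types as well. Actn4, an actin-bundling α-actinin, averaged 13.06 (99.6 percentile), and Cd2ap, the adaptor that links nephrin to actin, averaged 12.45 (98.8 percentile). Myo1e, a membrane-bound class I myosin, averaged 10.47, and Tjp1, the junction scaffold ZO-1, averaged 10.32. Both lay above the upper quartile on 12 of 12 arrays. Podxl (podocalyxin), the sialomucin of the foot process surface, averaged 9.89 and was above the upper quartile on 9 of 12 arrays. The 3 arrays on which Podxl was not are among the 4 replicate 1 arrays.

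**Figure D1:**
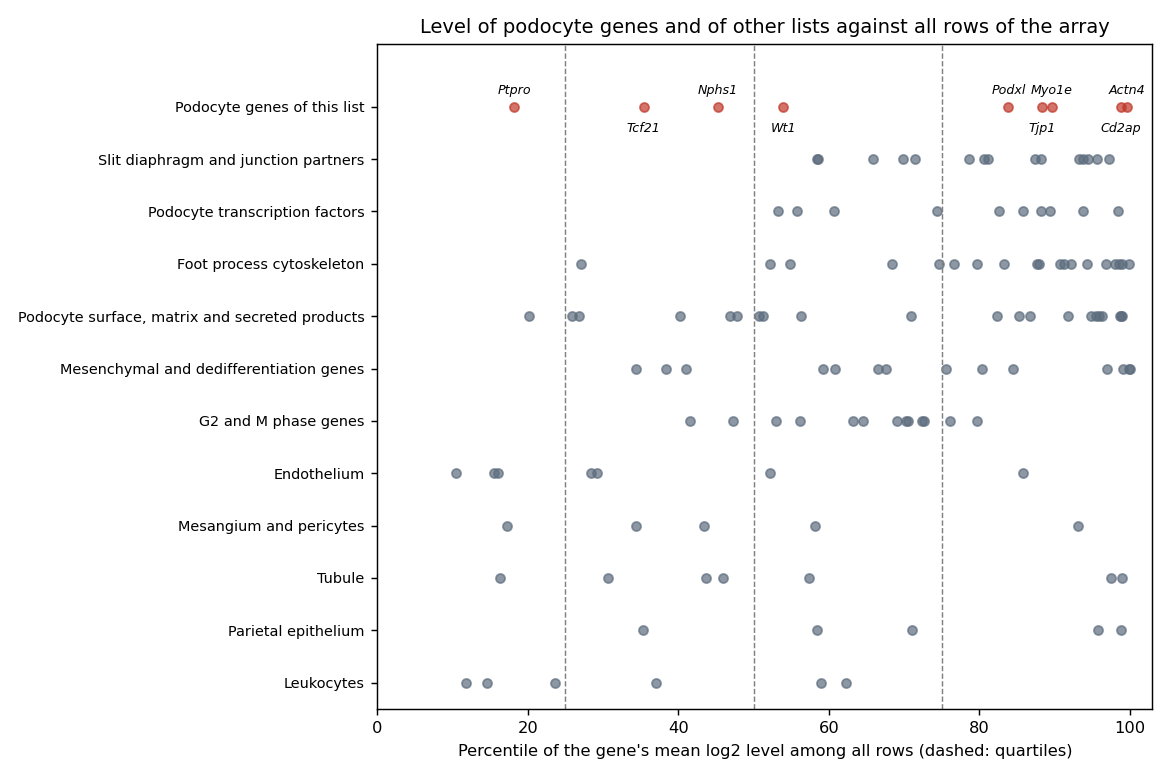
The horizontal axis gives the percentile of each gene's mean log2 level over 12 arrays among all 23332 rows, with dashed lines at the quartiles, and each line of points is 1 gene list. Of the podocyte genes on the top line, Ptpro lies at the 18.2 percentile and Nphs1 at the 45.2 percentile, while Cd2ap and Actn4 lie at the 98.8 and 99.6 percentiles.

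The labelled cell type was checked against marker lists for podocytes and for other kidney cells. Further podocyte products had a median at the 82.3 percentile, and 10 of 21 were above the upper quartile on 12 of 12 arrays. Itgb1 (99.0 percentile) and Cd151 (98.7 percentile) are among these 10. How far the genes of this list are particular to podocytes was not tested, so its median does not settle the cell type. Npnt (the matrix protein nephronectin, 95.5 percentile), Mme (neprilysin, 96.3 percentile) and Dag1 (dystroglycan, 98.8 percentile) were bright, and Dach1 was dim (20.1 percentile). Pla2r1 (25.9), Ptprd (26.8), Bmp7 (40.2), Col4a3 (46.9) and Robo2 (47.8) were also dim or mid-range. So were Cdkn1c (50.7), Pdpn (51.3) and Col4a4 (56.4). Of 10 podocyte transcription factors, 6 were above the upper quartile on 12 of 12 arrays, while Foxd2 (53.3), Lmx1b (55.7) and Foxc2 (60.7) were mid-range. Synpo (synaptopodin), often used as a podocyte marker, had no row with 1 symbol and was not analysed here. Markers of other nephron segments were not uniformly dim. Pax8 (98.8 percentile) and Cldn1 (95.8 percentile) of the parietal epithelium list were above the upper quartile on 12 of 12 arrays. So were Cdh16 (97.5 percentile) and Aqp1 (99.0 percentile) of the tubule list. The 7 tubule markers had a median at the 45.9 percentile. Dimmer ones were Slc12a1 (16.4), Umod (30.7), Slc34a1 (43.7), Slc12a3 (45.9) and Aqp2 (57.4). The 5 parietal markers had a median at the 71.1 percentile, with Krt18 at 35.3, Cd44 at 58.5 and Cldn2 at 71.1. The 7 endothelial markers had a median at the 28.4 percentile, from Emcn at 10.5 to Ehd3 at 85.8, with Kdr at 15.5 and Flt1 at 52.2. The 6 leukocyte markers had a median at the 30.3 percentile, with Ptprc at 11.7, Csf1r at 58.9 and Cd68 at 62.3. Of 5 mesangial and pericyte markers (median at the 43.4 percentile), Pdgfrb, the PDGF receptor β, was above the upper quartile on 12 of 12 arrays (93.1 percentile), and Itga8 was at the 17.3 percentile.

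For 7 of the 9 measured genes the RefSeq promoter table (GRCm38.p6) holds the 300 bases around a gene start, and it has no entry for Wt1 or Podxl. The 250 bases before the start are shown for Nphs1, the gene that defines the slit diaphragm, and for Actn4 and Tjp1, whose levels differed by replicate number. Capitals mark matches to the GC box GGGCGG on either strand.

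Nphs1, chr7:30459808-30460057, plus strand: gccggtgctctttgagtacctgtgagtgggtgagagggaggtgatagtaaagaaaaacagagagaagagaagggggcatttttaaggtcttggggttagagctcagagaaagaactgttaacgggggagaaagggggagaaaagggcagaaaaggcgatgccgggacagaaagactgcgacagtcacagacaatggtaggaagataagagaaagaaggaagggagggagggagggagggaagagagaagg
Actn4, chr7:28962333-28962582, minus strand: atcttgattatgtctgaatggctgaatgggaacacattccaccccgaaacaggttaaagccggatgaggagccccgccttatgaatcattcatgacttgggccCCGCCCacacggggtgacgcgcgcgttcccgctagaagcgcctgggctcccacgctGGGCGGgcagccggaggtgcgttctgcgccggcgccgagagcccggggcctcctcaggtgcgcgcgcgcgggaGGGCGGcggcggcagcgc
Tjp1, chr7:65371245-65371494, minus strand: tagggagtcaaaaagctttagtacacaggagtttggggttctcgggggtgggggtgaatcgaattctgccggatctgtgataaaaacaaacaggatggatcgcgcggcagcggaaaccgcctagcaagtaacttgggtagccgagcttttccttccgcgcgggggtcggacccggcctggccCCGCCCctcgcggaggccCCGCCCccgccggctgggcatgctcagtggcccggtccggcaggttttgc

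Nphs1 had no GC box in this window and a GC content of 49.7% against a median of 52.7% over all 32851 windows of the table. These GC contents and the motif counts are over the full 300 bases, of which 250 are printed. Actn4 (68.0% GC) had 4 GC boxes, at 147, 91 and 18 bases before the start and 1 after it, and Tjp1 (65.3% GC) had 2, at 68 and 50 bases before it. With Cd2ap (77.0% GC), which had 1 after its start, 3 of the 7 member windows hold GGGCGG, against 35.66% of all windows. Neither the AP-1 site TGACTCA (5.2% of all windows), the EGR site GCGTGGGCG (0.61%) nor the cyclic AMP element TGACGTCA (1.79%) was found on either strand in any of the 7 member windows. The EGR and GC box letters can overlap, and the AP-1 and cyclic AMP letters cannot match at the same start. These matches describe letters in a short window, not binding sites.

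No podocyte gene of the list passed the test in any comparison with Control, and under the alternatives tried Nphs1 and Tcf21 passed at Post-2hr when arrays were weighted, a setting in which 16.6% of all rows passed. With limma on all 12 arrays and Benjamini-Hochberg adjustment over all 23332 rows (threshold 0.05), 0 of 9 passed at End, where 0% of all rows did. At Post-2hr 0 of 9 passed, against 0.0171% of all rows, and at Post-24hr 0 of 9 against 0% of all rows. The F test for any difference among the 4 groups called 0 of 9 (lowest unadjusted p = 0.182, limma), against 0.00857% of all rows (0.00429% with replicate number as a block). An unadjusted p under 0.05 was reached by 0 of 9 genes in each of these 3 comparisons (limma), against 3.62% of all rows at End, 5.64% at Post-2hr and 2.4% at Post-24hr. With the block it was reached by 0, 1 and 0 genes, against 7.24%, 12.4% and 5.37% of all rows. With replicate number as a block 0 of 9 passed at each harvest, while the share of all rows called at Post-2hr moved to 0.163%. The 3 comparisons share the Control arrays.

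Means were higher than Control for 6 of 9 genes at End, 6 at Post-2hr and 4 at Post-24hr. The median difference of the 9 was 0.03 at End (0.01 over all rows), 0.07 at Post-2hr (−0.02 over all rows) and −0.02 at Post-24hr (0.00 over all rows). Differences ran from −0.13 to 0.18 at End, −0.25 to 0.19 at Post-2hr and −0.09 to 0.16 at Post-24hr. No gene of the 9 had arrays that did not overlap between a sheared group and Control, against 7.63% of all rows at End, 9.09% at Post-2hr and 5.61% at Post-24hr. The change had the same sign in all 3 replicate numbers for 2 of 9 genes at End (Actn4 and Myo1e, higher), against 30.8% of all rows. It did for 2 at Post-2hr (Ptpro, higher, and Tjp1, lower), against 33.3%, and for 3 at Post-24hr (Actn4, higher, and Podxl and Myo1e, lower), against 28.4%.

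**Figure D2:**
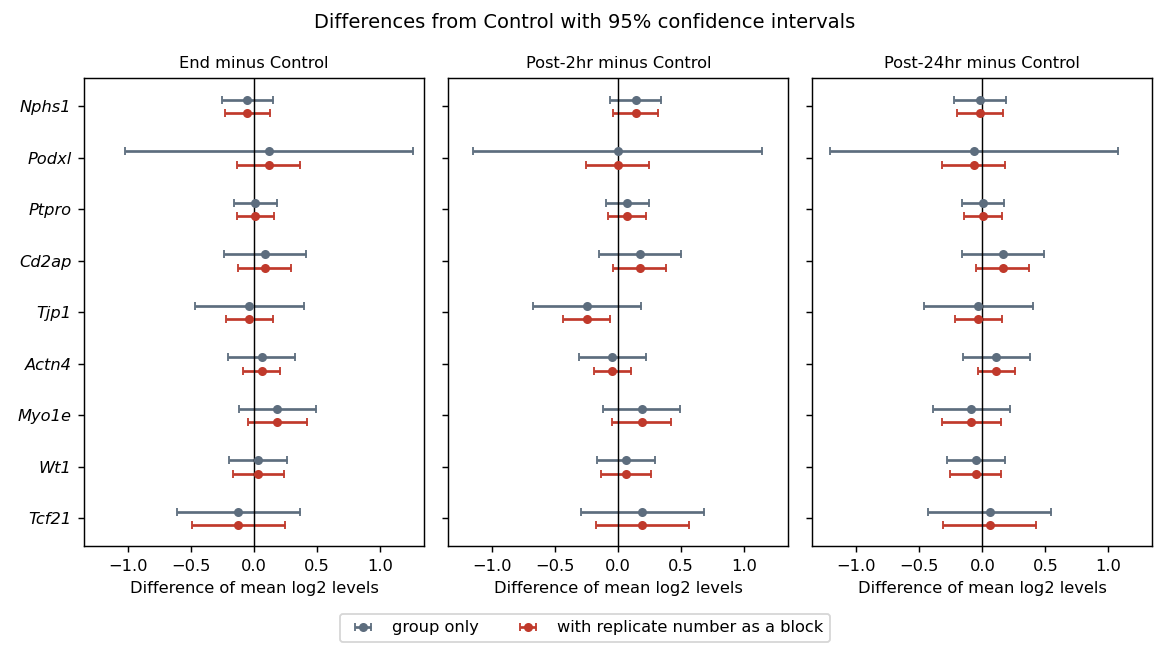
Each panel is 1 harvest, and the horizontal axis is the difference of mean log2 levels from Control with its 95% confidence interval, grey from the fit with groups alone and red with replicate number as a block. Grey intervals all span 0, and the widest belong to Podxl (−1.03 to 1.26 at End); among red intervals only that of Tjp1 at Post-2hr (−0.44 to −0.07) does not.

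Among surface and junction genes, Nphs1 had log2 levels of 6.57, 6.55 and 6.76 in Control (replicates 1, 2 and 3, the order used throughout), 6.55, 6.59 and 6.58 at End, 6.65, 6.89 and 6.76 at Post-2hr, and 6.57, 6.58 and 6.68 at Post-24hr. All 12 values lie within 0.34 of each other, with Post-2hr replicate 2 the highest and the replicate 3 arrays of Post-2hr and Control next. Those 3 arrays also had the lowest array medians (6.93, 6.98 and 6.97 in that order), and Wt1 and Tcf21 were highest on the same 3. Whether these levels follow a shift of the whole array was not tested. At Post-2hr the mean was 0.14 ± 0.09 (SE) above Control (95% interval −0.07 to 0.34, limma adjusted p = 0.953). Against End, the Post-2hr arrays were higher by 0.19 ± 0.09 in a comparison without overlap, which did not pass (adjusted p = 0.826). With arrays weighted by their estimated quality, the Post-2hr difference from Control was 0.19 with an adjusted p of 0.0350, in a fit where 16.6% of all rows passed.

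Podxl had 9.02, 10.24 and 10.36 in Control, 9.39, 10.20 and 10.38 at End, 9.06, 10.09 and 10.46 at Post-2hr, and 8.89, 10.21 and 10.32 at Post-24hr. In every group the replicate 1 array was low and the other 2 were close together. The difference from Control was 0.11 ± 0.51 at End, −0.01 ± 0.51 at Post-2hr and −0.07 ± 0.51 at Post-24hr (SE). These intervals reach up to 2.39-fold, because the fit counts the replicate 1 difference as spread; with replicate number as a block they narrow to −0.13 to 0.36, −0.25 to 0.24 and −0.32 to 0.18.

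Ptpro had 4.64, 4.60 and 4.74 in Control, 4.60, 4.69 and 4.72 at End, 4.75, 4.68 and 4.76 at Post-2hr, and 4.68, 4.67 and 4.65 at Post-24hr. Its whole range over 12 arrays was 0.16, and its spread within groups was at the 0.943 percentile of all rows. Whether a row this dim is above background is not known, so its small spread says nothing of how stable the transcript was.

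Tjp1 had 10.20, 10.59 and 10.43 in Control, 10.12, 10.53 and 10.45 at End, 9.87, 10.25 and 10.34 at Post-2hr, and 10.02, 10.65 and 10.45 at Post-24hr. Within each replicate number the Post-2hr array was the lowest of the 4. The share of all rows with this order was not computed. Over all rows the median Post-2hr difference was −0.02 from Control and −0.03 from End. Post-2hr was −0.25 ± 0.19 (SE) relative to Control, with changes of −0.32, −0.34 and −0.09 in replicates 1, 2 and 3. Leaving out 1 array, in fits with groups alone, gave −0.36 (without Control replicate 1) to −0.11 (without Post-2hr replicate 1). It did not pass over all rows (adjusted p = 0.964; 0.279 as adjusted p with replicate number as a block, where the unadjusted p was 0.0136). The same Post-2hr arrays were −0.21 ± 0.19 relative to End, and Post-24hr was 0.22 ± 0.19 above them, neither past the threshold.

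Cd2ap had 12.68, 12.20 and 12.14 in Control, 12.60, 12.36 and 12.31 at End, 12.65, 12.44 and 12.44 at Post-2hr, and 12.56, 12.52 and 12.42 at Post-24hr. Its direction differed by replicate number. Changes from Control were 0.16 and 0.17 at End, 0.24 and 0.30 at Post-2hr and 0.32 and 0.28 at Post-24hr in replicates 2 and 3, against −0.08, −0.03 and −0.12 in replicate 1. Whether the change differs between replicate 1 and the others was not tested. Over all arrays the differences were 0.08 ± 0.15, 0.17 ± 0.15 and 0.16 ± 0.15 (SE), and none passed (lowest adjusted p = 0.965, at Post-2hr).

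Neither the actin-bundling gene nor the motor gene passed at any harvest. Actn4 had 12.81, 13.13 and 13.14 in Control, 12.91, 13.18 and 13.17 at End, 12.86, 13.01 and 13.07 at Post-2hr, and 13.04, 13.20 and 13.18 at Post-24hr. Its largest difference from Control was 0.11 ± 0.12 at Post-24hr (95% interval −0.16 to 0.38), and replicate 1 was the lowest array of each group.

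Myo1e had 10.15, 10.62 and 10.44 in Control, 10.48, 10.65 and 10.62 at End, 10.60, 10.54 and 10.62 at Post-2hr, and 10.07, 10.45 and 10.41 at Post-24hr. All 3 Post-2hr arrays lay above all 3 Post-24hr arrays. Post-24hr was −0.27 ± 0.14 relative to Post-2hr, with changes of −0.53, −0.09 and −0.21 by replicate, and it did not pass (adjusted p = 0.871; 0.323 as adjusted p with the block). Against Control the Post-2hr difference was 0.19 ± 0.14, with changes of 0.46, −0.081 and 0.18 in replicates 1, 2 and 3.

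**Figure D3:**
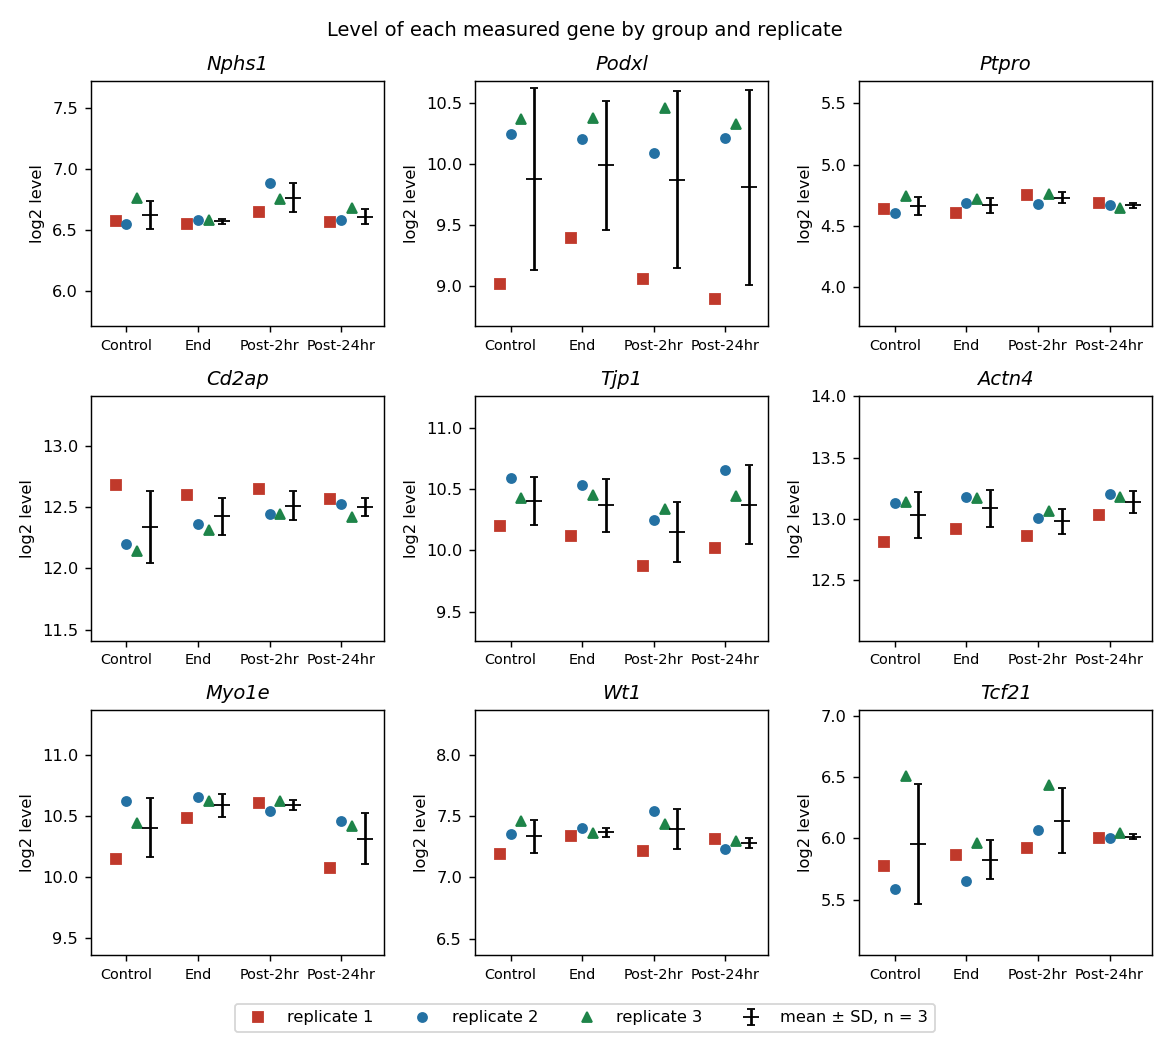
Each panel shows 1 gene, with the log2 level on a vertical axis that spans 2 units in all panels, the 4 groups along the horizontal axis, a square, circle or triangle for replicates 1, 2 and 3, and the mean ± SD of 3 arrays in black. Podxl separates by replicate number in every group (8.89 to 9.39 in replicate 1 against 10.09 to 10.46), and no gene separates Control from a sheared group.

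Of the transcription factors, Wt1 had 7.19, 7.36 and 7.46 in Control, 7.34, 7.41 and 7.36 at End, 7.22, 7.54 and 7.43 at Post-2hr, and 7.31, 7.24 and 7.30 at Post-24hr. Its differences from Control ran from −0.05 to 0.06 with an SE of 0.10, and the 95% intervals stay within 1.22-fold. Groups overlapped at each harvest.

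Tcf21 had 5.77, 5.58 and 6.51 in Control, 5.86, 5.65 and 5.96 at End, 5.92, 6.07 and 6.44 at Post-2hr, and 5.999, 6.002 and 6.04 at Post-24hr. Its spread came mostly from replicate 3 of Control and of Post-2hr, and the 3 Post-24hr arrays were nearly equal. Tcf21 was 0.19 ± 0.22 above Control at Post-2hr, with changes of 0.15, 0.49 and −0.07 by replicate. Weighting arrays by their estimated quality gave a difference of 0.70 with an adjusted p of 0.0138, in the fit where 16.6% of all rows passed and where Control replicate 2 and Post-2hr replicate 3 carry most of the weight of their groups. Leaving out 1 array moved the unweighted difference from 0.0041 (without Control replicate 2) to 0.47 (without Control replicate 3).

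Between successive harvests 0 of 9 genes passed from End to Post-2hr, against 0.0257% of all rows, and 0 of 9 from Post-2hr to Post-24hr, against 0% (0.0214% with the block). Groups did not overlap for 1 gene in each step: Nphs1 from End to Post-2hr, where 12% of all rows did not, and Myo1e from Post-2hr to Post-24hr, where 10.2% did not. An unadjusted p under 0.05 (limma) was reached by 0 of 9 genes in either step, against 6.24% of all rows in the earlier step and 5.71% in the later. With the block it was reached by 2 genes in the earlier step, against 13.5% of all rows, and by 3 in the later, against 13.1%. The change had the same sign in all 3 replicate numbers for 5 of 9 genes in each step, against 38.3% of all rows from End to Post-2hr and 33% from Post-2hr to Post-24hr. In both steps these included Nphs1, higher at Post-2hr than at the harvests on either side, and Actn4 and Tjp1, lower at Post-2hr than on either side. The 2 steps share the Post-2hr arrays, so the opposite signs are not independent.

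Podxl, Tjp1 and Actn4 were lower on the replicate 1 arrays of all 4 groups. With group in the model, an F test over the 3 replicate numbers (limma, adjusted over all rows) called 3 of 9 genes, against 23.3% of all rows. These were Podxl (adjusted p = 0.000181), Tjp1 (adjusted p = 0.00485) and Actn4 (adjusted p = 0.0257), all lower in replicate 1. Over all rows the calls went the other way more often, with 1989 lower and 3443 higher in replicate 1.

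Podxl averaged 9.09 ± 0.21 in replicate 1 (SD, n = 4) and 10.28 ± 0.12 in replicates 2 and 3 (SD, n = 8), a difference of −1.19 ± 0.10 (SE), or 2.28-fold lower in replicate 1. Within the groups the difference ran from −1.37 at Post-24hr to −0.90 at End. Its spread within groups, an SD of 0.70, was at the 96.1 percentile of all rows, and it was 0.13 once replicate number was held. Tjp1 averaged 10.05 ± 0.14 in replicate 1 and 10.46 ± 0.13 in replicates 2 and 3, a difference of −0.41 ± 0.06, and Actn4 12.91 ± 0.10 and 13.14 ± 0.07, a difference of −0.23 ± 0.05. The Podxl and Tjp1 calls held in 12 of 12 fits that left out 1 array, whereas Actn4 lost its call in 9 of them (adjusted p up to 0.114, without Control replicate 1).

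Cd2ap averaged 12.62 ± 0.05 in replicate 1 and 12.36 ± 0.13 in replicates 2 and 3, and its 4 replicate 1 arrays lay above the other 8, as in 12.1% of all rows. It did not pass for replicate number (adjusted p = 0.0534). The gap between replicate 1 and the others was 0.51 in Control, 0.26 at End, 0.20 at Post-2hr and 0.09 at Post-24hr. All 4 replicate 1 arrays lay below the other 8 for Podxl and Tjp1, as in 6.33% of all rows.

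**Figure D4:**
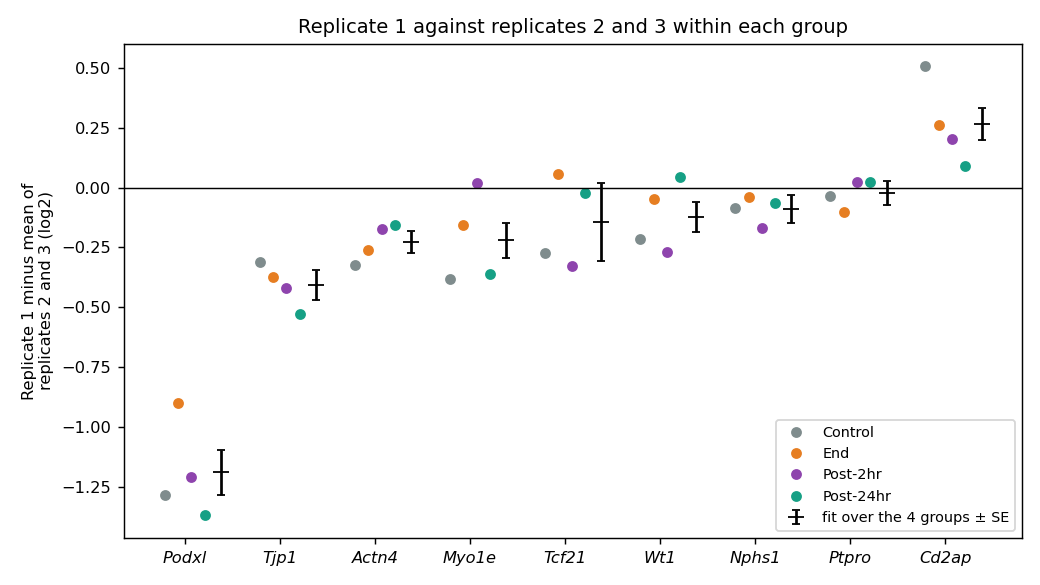
The vertical axis is the log2 level of replicate 1 minus the mean of replicates 2 and 3, with a coloured point for each group and, in black, the estimate over the 4 groups ± SE. Podxl lies lowest, from −1.37 to −0.90, and Cd2ap is the only gene with all 4 points above 0, from 0.09 to 0.51.

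Other transcripts moved with replicate number beside these genes. The counts below stand against the 23.3% of all rows that passed the same test, and shares near it do not set a list apart. All 13 measured G2 and M phase genes were lower in replicate 1, 13 of 13 past the threshold for replicate number, with a median difference of −1.48. Their mean level was 7.10 to 7.60 on replicate 1 arrays and 8.19 to 9.504 on the others. Of 19 foot process cytoskeleton genes, 13 passed for replicate number, all lower in replicate 1 (median of the 19 −0.49, against 0.02 over all rows). Slit diaphragm and junction partners were less one-sided, with 8 of 15 passing, 5 lower and 3 higher (median of the 15 −0.05). Podocyte transcription factors passed for 5 of 10, all lower, and mesenchymal and dedifferentiation genes for 7 of 14, 4 lower and 3 higher. Endothelial markers passed for 2 of 7, all lower, and mesangial and pericyte markers for 3 of 5, 2 lower and 1 higher. Of 21 podocyte surface, matrix and secreted products 15 passed, 11 lower and 4 higher. Among these, Plce1, a phospholipase C of the filter (−2.33 ± 0.15 SE), Npnt (−2.26) and Mme (−1.64) were lower in replicate 1 and Vegfa, the angiogenic factor, was higher (1.26). Of 7 tubule markers 2 passed, Cdh16 (−1.67) and Aqp1 (−1.42), and the other 5 lay between −0.20 and 0.00014. Of 5 parietal markers Cldn2 (−1.78) and Cldn1 (−0.66) passed. Of 6 leukocyte markers Cd68, a lysosomal protein, was higher in replicate 1 (2.20, adjusted p = 9.8e-05, limma) and Csf1r lower (−1.43), and the other 4 did not pass. The mean level of the tubule list, of which only those 2 genes passed, was 7.52 to 7.74 in replicate 1 and 8.06 to 8.16 in the others, and that of the parietal list 8.78 to 9.07 and 9.39 to 9.54. The part of cycling cells, cell state or another cell type in the Podxl, Tjp1 and Actn4 differences was not tested.

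Further lists of podocyte genes and a list of mesenchymal genes were read beside the members, and 0 genes of any of them passed against Control at any harvest, with or without the block. Of 15 measured slit diaphragm and junction partners, 10 means were higher at End, 5 at Post-2hr and 7 at Post-24hr, with medians of 0.05, −0.09 and −0.00037. The largest was Mpp5, a polarity scaffold, at 0.29 ± 0.25 (SE) at End. The lowest was Plcg1, a phospholipase recruited to nephrin, at −0.37 ± 0.08 at Post-2hr. Of 10 podocyte transcription factors, 5, 3 and 1 had higher means at the 3 harvests, and Zhx3 was at −0.72 ± 0.29 at Post-2hr. Foot process cytoskeleton genes had 16, 8 and 14 of 19 means higher. Cfl1, the actin-severing cofilin, was at 0.40 ± 0.28 at End, in a mid-range row (52.2 percentile). Anln, anillin, was at 0.54 ± 0.46 at Post-24hr. The median there was 0.09 for its list and 0.52 for the G2 and M phase genes, and whether Anln moved with the latter was not tested.

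Podocyte surface, matrix and secreted products had 15, 9 and 8 of 21 means higher, with medians of 0.07, −0.01 and −0.05. Plce1 was at 0.34 ± 0.99 (SE) at End and Robo2, a guidance receptor, at −0.40 ± 0.37 at Post-24hr. Mesenchymal and dedifferentiation genes had 7, 11 and 6 of 14 means higher, with medians of 0.01, 0.07 and −0.02. The list also holds the epithelial cadherin Cdh1 (−0.02, 0.07 and −0.03), so these counts do not measure a shift in 1 direction. Snai1, the transcriptional repressor Snail, was at 0.95 ± 0.31 at End and 0.59 ± 0.31 at Post-2hr. Tagln, a smooth muscle actin-binding protein, was at 0.54 ± 0.55 at Post-24hr. At Post-24hr all 13 G2 and M phase genes had higher means than Control (median 0.52), and 0 passed. Their mean level at Post-24hr, against Control, was 9.504 against 8.32 in replicate 2 and 9.34 against 8.69 in replicate 3, but 7.17 against 7.42 in replicate 1.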

How the data were processed

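RNA of 12 samples was hybridised to exon arrays, and per the labels' protocols the authors combined a gene's exon probes into 1 gene-level value. Deposited values are log2 levels. The submitters' processing notes name RMA and Partek, with no order, settings, versions or genome build. Between-array normalization of this kind would hide a change in total RNA per cell. Rows were named through the platform annotation; 14996 rows have 1 symbol, 1019 several and 7317 none here. The 9 measured genes matched RefSeq (GRCm38.p6) by gene identifier.

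All 23332 rows were fitted with limma 3.58.1 (R 4.3.3, lmFit and eBayes), with a mean for each of 4 groups, 8 residual and 2.16 prior degrees of freedom, Benjamini-Hochberg adjustment over all rows and a threshold of 0.05. Each difference is a mean log2 level less another, the group named first being the minuend, with SE and 95% interval from the fit; for arrays, their number limits the precision. The 10 genes and the further lists were chosen with earlier results of these data known. All 10 genes are named where measured, and of each further list up to 2 genes with the highest and 2 with the lowest difference per comparison with Control; genes named for their level or for their difference by replicate number were chosen after their values were seen.

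Groups share replicate numbers, and deviations from the group means correlated between same-numbered arrays in 17 of 18 pairs at over 0.1 (0.22 or more for pairs with Control). The exception, at 0.03, was between Post-2hr and Post-24hr. The pairing comes from these data, since the labels do not say what a number marks. Same-numbered pairs of replicate 1 ran from 0.52 to 0.72, and those of replicates 2 and 3 from 0.029 to 0.54. Arrays of replicate 2 with replicate 3 in different groups reached much the same values, 0.025 to 0.52. The correlations therefore set replicate 1 apart and do not show that replicates 2 and 3 are paired by number. Alternatives were replicate number as a block, replicate 1 set apart, replicates 2 and 3 only, median centring, quantile normalization, rows under the 25th percentile left out, rows with 1 symbol only, a variance trend, no variance moderation, array weights, only the groups compared, and each array left out.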

Additional observations from a re-analysis of the deposited data

How the results depend on the processing

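The count of 0 members past the threshold was the same under the alternatives run, with 1 exception. With array weights, 2 of 9 passed at Post-2hr against Control, Nphs1 (0.19, adjusted p = 0.0350) and Tcf21 (0.70, adjusted p = 0.0138, limma). Those weights were 5.86 for Control replicate 2 and 5.27 for Post-2hr replicate 3 and 0.339 to 1.49 for the others, so 1 array in each group decides the value; 3863 of all rows (16.6%) were then called. With replicate number as a block, 0 members passed in any of the 5 comparisons. Averaging several rows of a gene gave no value, as each gene has 1 row.

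Of 490 recomputed differences, 19 turned sign. With replicates 2 and 3 only, Cd2ap was 0.030 and Myo1e −0.055 (Post-24hr minus Post-2hr and Post-2hr minus End), Podxl −0.014 and Wt1 −0.024 (End minus Control), and Ptpro −0.015, Tcf21 −0.024 and Tjp1 0.042 (Post-24hr minus Control). With array weights, Cd2ap was 0.038 (Post-24hr minus Post-2hr), Nphs1 0.010, Podxl −0.036 and Tcf21 0.15 (End minus Control), Nphs1 0.048 (Post-24hr minus Control), and Podxl 0.16 (Post-2hr minus Control) and 0.19 (Post-2hr minus End). With median centring, Actn4 was 0.0070 and Podxl 0.050 (Post-2hr minus Control) and Ptpro −0.0010 (Post-24hr minus Control). With quantile normalization, Podxl was 0.046 (Post-2hr minus Control) and Ptpro −0.015 (Post-24hr minus Control). The cause was not tested.

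With 1 array left out, 0 of 540 differences passed and 49 turned sign. These fits held groups alone, so leaving out 1 array also unbalances the replicate numbers. The ranges below therefore include the replicate 1 difference, and fits with the block were not run with an array left out. Among differences that kept their sign, ranges were 0.076 to 0.20 (Nphs1), 0.070 to 0.34 (Cd2ap) and 0.058 to 0.30 (Myo1e) for Post-2hr minus Control, 0.062 to 0.33 (Cd2ap) and 0.0025 to 0.17 (Actn4) for Post-24hr minus Control, and −0.34 to −0.15 (Myo1e) for Post-24hr minus Post-2hr. Control replicate 1 left out gave 1 end of the Cd2ap, Myo1e and Actn4 ranges against Control. For End minus Control the ranges were −0.049 to 0.15 (Actn4), −0.016 to 0.25 (Cd2ap), −0.093 to 0.011 (Nphs1), −0.31 to 0.41 (Podxl), −0.022 to 0.050 (Ptpro), −0.31 to 0.15 (Tcf21), −0.14 to 0.087 (Tjp1) and −0.040 to 0.094 (Wt1). For Post-2hr minus Control they were −0.16 to 0.0092 (Actn4), −0.43 to 0.40 (Podxl) and −0.012 to 0.15 (Wt1). For Post-24hr minus Control they were −0.22 to 0.032 (Myo1e), −0.056 to 0.048 (Nphs1), −0.50 to 0.39 (Podxl), −0.024 to 0.047 (Ptpro), −0.13 to 0.34 (Tcf21), −0.17 to 0.15 (Tjp1) and −0.12 to 0.0091 (Wt1). For Post-2hr minus End they were −0.048 to 0.037 (Myo1e), −0.42 to 0.28 (Podxl) and −0.043 to 0.12 (Wt1), and for Post-24hr minus Post-2hr −0.042 to 0.060 (Cd2ap), −0.47 to 0.39 (Podxl) and −0.24 to 0.018 (Tcf21).

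For replicate number, 2 to 4 members passed over the alternatives. Cd2ap, at an adjusted p of 0.0534, passed with dim rows left out (0.0347), with 1-symbol rows only (0.0276), with a variance trend (0.0208), with array weights (0.0306) and without Post-24hr replicate 1 (0.040). Myo1e passed with quantile normalization (0.0495). With 3 arrays a group, intervals for Podxl reach up to 2.40-fold unless replicate number is held.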
